A study of Mus musculus with 4 samples.

Results

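Transcripts of 10 macrophage genes (Marco, Chil3, Ear2, Mrc1, Cd68, Itgax, Itgam, Retnla, C1qa and C1qb) were followed across lung sections of vaped and non-vaped mice. The genes were taken by symbol from tables of 32285 genes, and all 10 were present in the table of every section. Each of the 4 samples was the lung of 1 mouse, a C57BL/6J animal aged 6 to 8 weeks at the start of exposure, and each group held 1 male and 1 female. Vaped (V) mice breathed e-vapor of a peach flavored liquid made with vegetable glycerin and propylene glycol, delivered by JUUL pens in whole body chambers for 9 weeks (4 h daily on 5 days a week). Non-vaped (NV) mice were the controls, and the study's methods speak of air exposure for the control lungs of its immunoblots without naming these mice. No genetic change was given for either group. Cryosections from the upper pulmonary branches were placed on Visium slides, where every barcoded spot captures the mRNA of several cells and tags each molecule with a unique molecular identifier (UMI).

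Alveolar macrophages live on the air side of the alveolus, where they clear surfactant and inhaled particles. Interstitial macrophages sit in the connective tissue around airways and vessels and in the alveolar walls, present antigen and produce complement. Marco is a scavenger receptor that binds unopsonized particles, Chil3 encodes the chitinase-like lectin Ym1, Ear2 encodes an eosinophil-associated ribonuclease that alveolar macrophages also make, and Itgax (CD11c) is an integrin of alveolar macrophages and dendritic cells. Cd68 is a lysosomal protein of macrophages generally, and Mrc1 (CD206) is a mannose receptor found on both populations. Itgam (CD11b) is an integrin of interstitial macrophages, monocytes and neutrophils, whereas C1qa and C1qb encode chains of complement C1q and are typical of interstitial macrophages. Retnla encodes the secreted protein RELM-alpha, known from alternatively activated macrophages and from fat tissue.

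The sections held 473 to 842 spots and 6957392 to 9386470 UMIs in NV mice, and 1565 to 2053 spots and 11880468 to 34308556 UMIs in V mice. Spots were called parenchyma when the summed share of 6 markers of alveolar epithelium (Sftpc, Sftpb, Hopx, Cldn18) and capillaries (Calcrl, Tmem100) reached 50% of the share over all spots. Parenchyma made up 684 of 842 spots in the NV male, 348 of 473 in the NV female and 1620 of 2053 in the V female, but 1564 of 1565 in the V male, so that the V male section held almost no other tissue. Levels are given as CPM, the UMIs of a gene per 1000000 UMIs of the section or spots, and those of single mice are listed in the order NV male, NV female, V male and V female. The summed level of 6 cardiac muscle markers was 6573, 7015, 18.2 and 3673 CPM. For 6 adipocyte markers the sums were 1147, 9089, 25.2 and 7002 CPM, and no marker of either list was at 0 in any section. Pairs of sections shared 277 to 1167 spot barcodes, which repeat between Visium capture areas. A macrophage list that includes none of the 10 genes marked both populations in each section, with 11 alveolar macrophage genes summing to 162 to 227 CPM and 12 interstitial macrophage genes to 286 to 596 CPM, none of them at 0.

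Across whole sections, the levels of Marco, Chil3 and Ear2 in both V mice lay above those in both NV mice, and the levels of Retnla, C1qa and C1qb lay below. Mrc1, Cd68, Itgax and Itgam overlapped between the groups. Among all 14570 genes tested, both V mice lay above both NV mice for 12.6% and below for 14.4%, against 3 and 3 of the 10 macrophage genes. None of the 10 differences was called by edgeR's quasi-likelihood test on UMI sums per mouse (Benjamini-Hochberg adjusted p under 0.05 and log2 fold change over 0.25 in size). The test called 0% of all genes, while 248 genes had an unadjusted p under 0.05 and DESeq2 called 8. At 2 mice against 2, the smallest two-sided p of an exact permutation is 0.33. In summed spots a lower level can mean fewer cells of a type or less RNA per cell, which cannot be told apart here.

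Marco stood at 14.2, 10.9, 54.5 and 22.1 CPM. The V male was the highest of the 4 mice, and the V female was closer to the NV mice than to the V male. The log2 fold change of V over NV was 1.53 (SE 0.43, n = 2 per group, edgeR adjusted p = 0.9997, unadjusted p = 0.022), 0.88 without the V male and 1.97 without the V female, the latter called at an adjusted p of 0.0054 with a lone V mouse taken to vary as the NV mice do. Counts behind these values were low, with 133, 76, 647 and 757 Marco UMIs.

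Chil3 stood at 134, 222, 433 and 308 CPM. Group means were 178 ± 62.1 CPM in NV and 371 ± 88.01 CPM in V mice (SD, n = 2), and the log2 fold change was 1.02 (SE 0.34, edgeR adjusted p = 0.9997), or 0.69 without the NV male and 1.44 without the NV female. Ear2 stood at 35.6, 49.3, 72.2 and 72.2 CPM, a log2 fold change of 0.74 (SE 0.23, edgeR adjusted p = 0.9997). The V mice were thus above the NV mice for both genes, more so in males (a ratio of 3.23 for Chil3 and 2.03 for Ear2) than in females (1.39 and 1.46). Chil3 is also made by neutrophils, whose 8 markers summed to 157, 164, 595 and 77.8 CPM, highest in the V male, and their part in the Chil3 level was not tested. Ear2 and Chil3 belong to families with close copies (Ear1 among them), and how reads common to such copies were counted was not examined.

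Retnla gave the widest spread of the 10 genes. It stood at 207, 375, 4.97 and 180 CPM. The V male was far below the others, with 59 Retnla UMIs in 11880468, whereas the V female lay just under the NV male. The log2 fold change of -1.57 (SE 1.61, edgeR adjusted p = 0.9997) became -0.62 without the V male and -6.01 without the V female (adjusted p = 0.0014). The adipocyte and cardiac muscle markers were likewise lowest in the V male, and their part in the Retnla difference was not tested.

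C1qa stood at 103, 183, 37.5 and 96.0 CPM, and C1qb at 102, 160, 40.8 and 94.3 CPM. Both chains ordered the mice alike, with the V male lowest, the V female and NV male close together and the NV female highest. The number of C1qa UMIs per C1qb UMI stayed between 0.92 and 1.14 in the 4 sections. Log2 fold changes were -1.07 (SE 0.63) for C1qa and -0.93 (SE 0.56) for C1qb, with edgeR adjusted p of 0.9997. Without the V male they were -0.50 and -0.40, and without the V female -2.07 and -1.82 (adjusted p of 0.033 and 0.028).

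The remaining genes differed little. Mrc1 ranged from 45.2 CPM (V male) to 65.5 CPM (NV female), Cd68 from 32.5 CPM (NV female) to 40.1 CPM (NV male), Itgax from 21.1 CPM (NV female) to 28.3 CPM (NV male and V female) and Itgam from 11.7 CPM (V female) to 19.9 CPM (NV male). Their log2 fold changes were -0.24 (SE 0.26), -0.08 (SE 0.21), 0.10 (SE 0.24) and -0.32 (SE 0.25), each with an edgeR adjusted p of 0.9997.

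**Figure D1:**
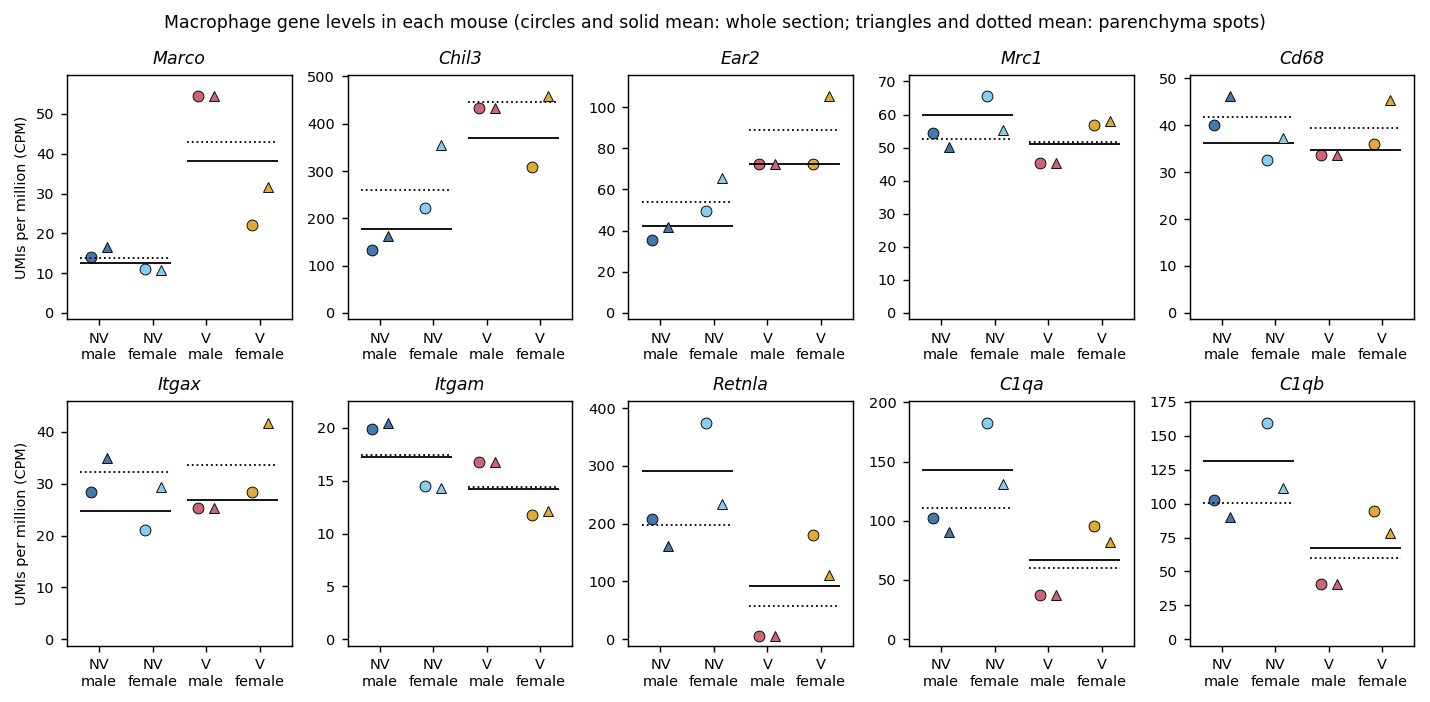
Level of each macrophage gene (CPM, linear axis) in the 4 mice, with circles for whole sections, triangles for parenchyma spots and solid or dotted lines for their means over the 2 mice of a group. Marco, Chil3 and Ear2 lie higher in both V mice than in both NV mice, Retnla, C1qa and C1qb lie lower, and the V male is nearest to 0 for Retnla at 4.97 CPM.

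The comparison was repeated on parenchyma spots alone, since sections differed in how much other tissue they held. Such spots were not free of it: cardiac muscle markers summed to 2938, 2099, 18.2 and 1768 CPM there. Adipocyte markers summed to 637, 2929, 25.2 and 2876 CPM, so the V male still stood apart. The part of this tissue in the differences that follow was not tested. The same genes separated the groups: Marco, Chil3 and Ear2 were higher and Retnla, C1qa and C1qb lower in both V mice, against 14.4% and 17.1% of 14348 genes. Marco stood at 16.5, 10.9, 54.5 and 31.7 CPM, giving a log2 fold change of 1.63 (SE 0.35, edgeR adjusted p = 0.9992, unadjusted p = 0.0049). Those of Chil3 and Ear2 were 0.80 (SE 0.37) and 0.75 (SE 0.30), and those of C1qa, C1qb and Retnla were -0.86 (SE 0.42), -0.73 (SE 0.34) and -1.73 (SE 1.24). None was called, nor was any other gene (0%), while 380 had an unadjusted p below 0.05 and DESeq2 called 10. Leaving out either V mouse, which leaves a lone V animal, brought Marco, Chil3 and Retnla past the threshold. Without the V male their log2 fold changes were 1.198, 0.87 and -0.79, and Ear2 also passed at 1.03. Without the V female they were 1.94, 0.74 and -5.31, and C1qa (-1.55) and C1qb (-1.30) also passed. No member passed when an NV mouse was left out, which set Chil3 to 0.36 without the NV male and 1.43 without the NV female.

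Genes of the macrophage lists that are not among the 10 were read alongside them. Across whole sections, the alveolar macrophage list had a positive log2 fold change of V over NV for 11 of 11 genes (median 0.36). In the parenchyma it had one for 8 of 11 (median 0.29). Over all genes tested the medians were 0.03 and 0.01, and 53.7% and 51.3% had a positive value. Both V mice lay above both NV mice for 8 of the 11 genes across whole sections and for 3 in the parenchyma. The shares over all genes tested were 12.6% and 14.4%. The remaining genes of the list overlapped between the groups. In the parenchyma the list summed to 192, 251, 227 and 319 CPM, with the V male below the NV female. The interstitial macrophage list had a negative log2 fold change for 12 of 12 genes in both, with medians of -0.51 and -0.48. Of all genes, 46.3% and 48.7% had a negative value. Both V mice lay below both NV mice for 9 and 7 of the 12 genes, against 14.4% and 17.1% of all genes. The others overlapped. In the parenchyma the list summed to 492, 507, 286 and 433 CPM, lowest in the V male. There the V to NV ratio in females was above 1 for Csf1r (1.05), Ms4a7 (1.47) and Adgre1 (1.04) and below 1 for the rest. Other lists had mostly negative values as well: 5 of 6 monocyte genes in both (median -0.47 in each) and 6 of 7 dendritic cell genes in both (medians -1.05 and -1.10). The neutrophil list had positive values for 6 of 6 genes tested in both (medians 0.85 and 0.54). All 8 neutrophil genes nevertheless overlapped between the groups in both. Their sum across whole sections was 157, 164, 595 and 77.8 CPM, highest in the V male and lowest in the V female. Lists of other tissue leaned to 1 side across whole sections too. The 6 parenchyma markers (median 0.28) and 5 red blood cell genes (0.48) were all positive. All 6 cardiac muscle (-1.70) and 6 adipocyte genes (-0.59) were negative. Alveolar type 2 and club cell genes were mixed across whole sections, with 2 of 6 and 2 of 4 positive. In the parenchyma, 5 of 6 alveolar type 2 genes (median -0.22) and 3 of 4 club cell genes (-0.26) were negative. Both V mice lay below both NV mice for 4 of the 6 alveolar type 2 genes there, against 17.1% of all genes. Of the other tissue lists, 5 of 6 parenchyma markers and 5 of 5 red blood cell genes were positive there. Negative values were seen for 5 of 6 cardiac muscle and 6 of 6 adipocyte genes. The part of tissue content in the macrophage list values was not tested. None of these genes was called by edgeR. Ear1, a close relative of Ear2, stood at 10.7, 18.7, 31.9 and 31.8 CPM. The folate receptor gene Folr2, a marker of interstitial macrophages, stood at 25.7, 44.3, 0.76 and 21.1 CPM, lowest in the V male as were Retnla, C1qa and C1qb. Ptprc (CD45), carried by leukocytes generally, was at 70.8, 65.1, 62.5 and 65.1 CPM, a log2 fold change of -0.11 (SE 0.18, edgeR adjusted p = 0.9997). Transcripts of the inflammatory cytokine Il1b were at 17.3, 6.61, 8.67 and 3.93 CPM, and those of Il6 numbered 2, 1, 0 and 10 UMIs.

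The share of spots with a UMI was compared after every spot was thinned to 3000 UMIs, which left out 52 to 224 shallower spots per section. In the parenchyma, Marco was seen in 4.62% of 606 spots (exact interval at 95% confidence, 3.09 to 6.61%), 4.85% of 309 (2.74 to 7.88%), 12.8% of 1363 (11.1 to 14.7%) and 8.86% of 1400 (7.42 to 10.5%), in the same order of mice. Chil3 was seen in 34.8%, 51.8%, 62.8% and 69.5% of them. Both genes were therefore found in a larger share of parenchyma spots in each V mouse, which also held for Ear2 (10.6% and 15.9% against 18.2% and 28.1%). For Ear2, the gap between the NV female and the V male lay within counting error. Retnla was seen in 28.4% and 42.1% of NV spots, 26.8% of V female spots and 1.32% of V male spots (0.785 to 2.08%). C1qa was seen in 21.8% and 31.4% of NV spots and in 9.46% and 21.4% of V spots, so that the V female differed from the NV male by less than counting error. Without thinning, Marco was seen in 12.4%, 9.09%, 29.1% and 26.3% of all spots. Intervals cover counting error only, and each group still rests on 2 mice.

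**Figure D2:**
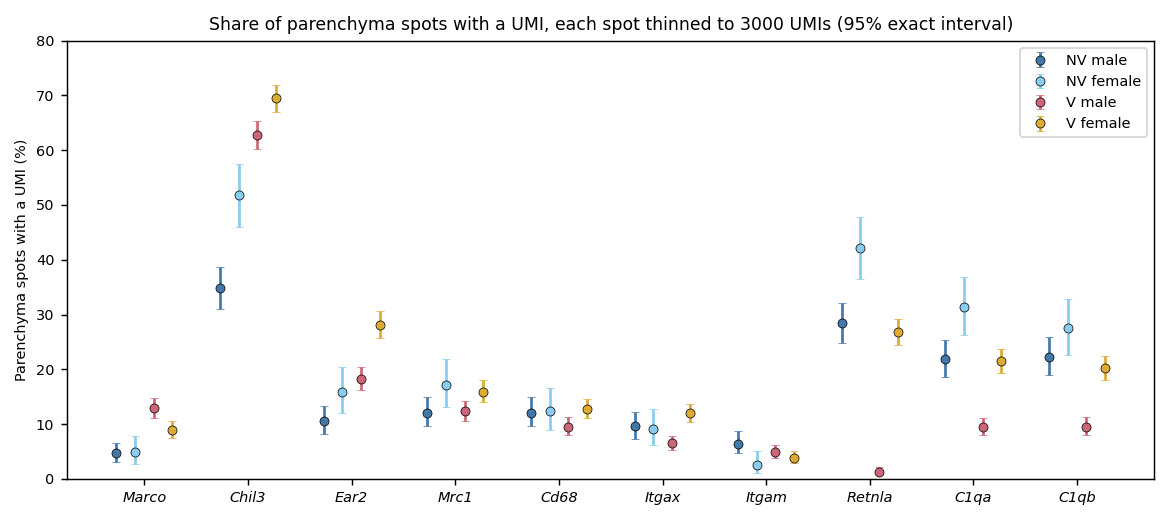
Share of parenchyma spots with at least 1 UMI of each macrophage gene (percent) in each mouse after thinning to 3000 UMIs per spot, with exact 95% binomial intervals as bars. Chil3 runs from 34.8% in the NV male to 69.5% in the V female, and Retnla stands at 1.32% in the V male and at 26.8% or more elsewhere.

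Parenchyma was then compared with the other spots of the same section in the 3 mice with at least 50 spots of each kind (NV male, NV female and V female, in which order values follow), with the mouse as a term. Chil3, Itgax, Ear2 and Cd68 were higher in the parenchyma, and Retnla, C1qb, C1qa and Mrc1 were lower. Of 13526 genes, 18.8% were called higher and 22.7% lower, against 4 and 4 of the 10 macrophage genes. The median log2 fold change over all genes was 0.03 with the TMM scaling used here and 0.45 with scaling to total UMIs alone, so values are relative to that median. With total UMIs, 6970 genes were called higher and 1869 lower, in place of 2540 and 3072, and the call of Mrc1 was lost. Marco was called higher in that setting.

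Chil3 reached 163, 356 and 458 CPM in the parenchyma against 35.9, 63.3 and 129 CPM elsewhere, a log2 fold change of 1.72 (SE 0.14, edgeR adjusted p = 1.3e-05). Itgax reached 34.9, 29.5 and 41.8 CPM against 6.44, 11.3 and 12.2 CPM (1.38, SE 0.18, edgeR adjusted p = 0.00018), and Ear2 reached 41.7, 65.5 and 105 CPM against 15.2, 30.1 and 32.7 CPM (1.04, SE 0.14, edgeR adjusted p = 3.0e-04). All 3 genes were higher in the parenchyma of each mouse. Cd68 was higher by a log2 fold change of 0.42 (SE 0.15, edgeR adjusted p = 0.044), a call that held in 3 of 9 alternatives. It was lost without the NV male (adjusted p = 0.094), without the V female (0.15), with DESeq2 (0.18), with the size factors of DESeq2 in edgeR (0.051), after thinning (0.11) and at the 100% threshold (0.85). Marco was not called at 0.73 (SE 0.27, edgeR adjusted p = 0.055): it was 2.56 and 2.98 times higher in the parenchyma of the NV male and V female but equal in the NV female, without which it was called (1.099, adjusted p = 0.0058), and 0.16 without the V female. Marco was called higher in 5 of 9 alternatives. With parenchyma set at 100% of the overall marker share in place of 50%, which brings in the V male, the log2 fold changes of Chil3 and Ear2 fell to 0.56 and 0.35 and neither was called.

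Retnla reached 358, 542 and 263 CPM in other spots against 162, 234 and 111 CPM in parenchyma, a log2 fold change of -1.63 (SE 0.11, edgeR adjusted p = 5.8e-06). The parenchymal level was 0.45, 0.43 and 0.42 of that elsewhere, nearly the same fraction in each mouse. C1qb and C1qa were lower by -1.15 (SE 0.12, edgeR adjusted p = 4.6e-05) and -1.10 (SE 0.12, edgeR adjusted p = 6.8e-05), with parenchymal levels of 0.51 to 0.73 of those elsewhere over both genes and all 3 mice. Mrc1 was lower by -0.69 (SE 0.14, edgeR adjusted p = 0.0034), although before TMM scaling the V female was level in both regions (58.1 against 55.2 CPM). Itgam was not called (-0.34, SE 0.15, edgeR adjusted p = 0.11) and had a positive sign, 0.088, when scaled to total UMIs. The other spots were rich in adipocyte markers (2841, 16369 and 11929 CPM, against 637, 2929 and 2876 CPM in the parenchyma) and cardiac muscle markers, and their part in the levels of Retnla, C1qa, C1qb and Mrc1 was not tested.

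All 11 genes of the alveolar macrophage list were called higher in the parenchyma, among them Ear1 (1.75), the scavenger receptor gene Olr1 (1.66), the proton pump subunit gene Atp6v0d2 (1.47) and Mcoln3 (1.41). Of the 12 interstitial macrophage genes 6 were called lower, the largest changes being those of Folr2 (-1.81), the hemoglobin scavenger receptor gene Cd163 (-1.70), the platelet factor gene Pf4 (-1.30) and C1qc (-1.03), and 1, Cx3cr1, was called higher (0.69). The medians of both lists were 1.16 and -0.66. The third chain of C1q, C1qc, thus moved as C1qa and C1qb did. Among genes of alternative activation, Ccl24 (-2.06) and Clec10a (-1.48) were lower with Retnla, whereas Il4ra was higher (0.69), and of the classical activation genes Il1b (1.61) and Ccl4 (1.11) were higher. General myeloid genes were called higher in 8 of 11 cases, led by both lysozyme genes, Lyz1 (1.68) and Lyz2 (1.43). Parenchyma spots were chosen by markers of alveolar epithelium and capillaries, and the part of those cells in the lysozyme levels was not tested. All 4 neutrophil genes tested were also called higher in the parenchyma, as were 3 of 6 monocyte genes and 1 of 7 dendritic cell genes. In turn, 1 monocyte gene (F13a1, -1.38) was called lower.

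**Figure D3:**
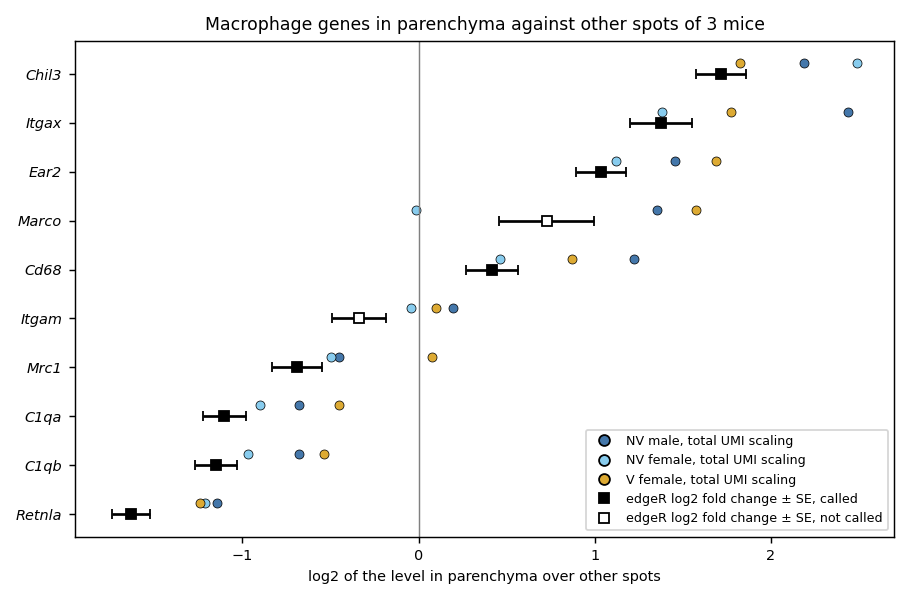
Log2 of the level in parenchyma over other spots for each macrophage gene, with squares and bars for the edgeR estimate and its SE (filled where called) and colored points for the ratio in each of 3 mice, which is scaled to total UMIs and not by TMM. The estimates of Chil3, Itgax and Ear2 lie above 1 and those of Retnla, C1qa and C1qb below -1.

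The 5' flanks of a pair of genes higher in the parenchyma (Chil3, Ear2) and a pair lower there (Retnla, C1qb) are given for reference as the 250 bases before the RefSeq start, 5' to 3', on GRCm38.p6, cut to 192 bases for Retnla, where the Ensembl gene begins earlier. They lie at chr3:106167565-106167814 (minus strand) for Chil3, chr14:44102404-44102653 (plus strand) for Ear2, chr16:48842359-48842550 (plus strand) for Retnla and chr4:136886201-136886450 (minus strand) for C1qb. Windows for 9 of the 10 genes were found, all but C1qa. Capitals mark matches, on either strand, to GAGGAA (a core of sites of the myeloid factor PU.1), AGGAAG (a core of ETS family sites, which can overlap the former and was added after the windows had been seen) or TTCNNNNGAA (a STAT6 site).
Chil3: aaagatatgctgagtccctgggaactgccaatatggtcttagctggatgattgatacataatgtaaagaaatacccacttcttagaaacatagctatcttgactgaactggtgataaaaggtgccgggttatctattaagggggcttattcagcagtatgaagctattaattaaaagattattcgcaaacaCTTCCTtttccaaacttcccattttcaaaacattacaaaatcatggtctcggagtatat
Ear2: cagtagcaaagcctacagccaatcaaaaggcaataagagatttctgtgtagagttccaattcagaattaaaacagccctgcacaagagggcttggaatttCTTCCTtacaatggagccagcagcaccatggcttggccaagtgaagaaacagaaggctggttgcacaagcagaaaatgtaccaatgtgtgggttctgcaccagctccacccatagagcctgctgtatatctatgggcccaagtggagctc
Retnla: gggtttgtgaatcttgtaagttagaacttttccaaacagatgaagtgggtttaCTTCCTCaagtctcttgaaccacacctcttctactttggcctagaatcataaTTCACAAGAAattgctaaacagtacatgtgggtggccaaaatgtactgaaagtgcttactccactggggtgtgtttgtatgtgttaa
C1qb: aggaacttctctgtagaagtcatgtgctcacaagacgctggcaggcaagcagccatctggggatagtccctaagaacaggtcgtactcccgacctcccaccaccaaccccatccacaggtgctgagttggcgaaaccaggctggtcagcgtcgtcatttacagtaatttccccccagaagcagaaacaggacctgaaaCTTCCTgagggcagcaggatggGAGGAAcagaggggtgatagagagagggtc
Chil3 and Ear2 each held 1 match to AGGAAG. Retnla held 1 match to each of the 3 motifs, the first 2 overlapping, and C1qb held 1 match to GAGGAA and 1 to AGGAAG. Of 32851 such windows, 23.3% held GAGGAA, 29.5% AGGAAG and 5.85% TTCNNNNGAA, so single matches are common, and a match is not evidence of binding.

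Co-location was examined within parenchyma spots thinned to 3000 UMIs. Spots were called Chil3-high when they held more Chil3 UMIs than the 75th percentile of their own section, which took at least 2 UMIs in NV and 3 UMIs in V mice and gave 46, 63, 174 and 260 spots in the order of mice used above. Their UMIs were summed per mouse and compared with those of the remaining parenchyma spots, with the mouse as a term. Ear2 and Mrc1 were higher in Chil3-high spots and Retnla was lower, against 0.215% of 9293 genes called higher and 0.0215% called lower.

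Ear2 reached 138, 153, 186 and 192 CPM in Chil3-high spots against 30.4, 43.4, 58.6 and 102 CPM in the others. The level was thus 1.89 to 4.54 times higher in each of 4 mice, a log2 fold change of 1.31 (SE 0.12, edgeR adjusted p = 1.4e-25). DESeq2 and all other settings tried also called Ear2. Mrc1 was 1.16 to 2.21 times higher in the 4 mice (log2 fold change 0.63, SE 0.16, edgeR adjusted p = 0.031). The call of Mrc1 held in 3 of 10 alternatives. It ended without the NV male, the NV female or the V male (adjusted p of 0.063, 0.12 and 0.90), with DESeq2 (0.9997), with no filter (0.099), over all spots (0.11) and with thinning to 1000 UMIs (0.78). Retnla was lower in each mouse (-0.56, SE 0.14, edgeR adjusted p = 0.037), but DESeq2 did not call it (adjusted p = 0.9997), the V male held 1 Retnla UMI in its Chil3-high spots, the value without the NV female was -0.29 (adjusted p = 0.91) and that without the V male -0.55 (adjusted p = 0.073), and the sign turned to 0.52 and 0.064 with thinning to 1000 and 5000 UMIs.

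Other members were not called beside Chil3. Cd68 was 1.17 to 2.40 times higher in the 4 mice (log2 fold change 0.61, SE 0.18, edgeR adjusted p = 0.15), and Marco was higher in 3 of 4 (0.52, SE 0.20, edgeR adjusted p = 0.46). Thinning to 5000 UMIs, which keeps more transcripts per spot and fewer spots, brought Marco (1.12, adjusted p = 6.9e-10) and Itgax (0.85, adjusted p = 2.8e-05) past the threshold. C1qa and C1qb had log2 fold changes of 0.04 (SE 0.15) and -0.13 (SE 0.16), each higher in 2 of 4 mice.

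The 20 genes called higher in Chil3-high spots included the chemokine gene Ccl6 (log2 fold change 0.93, edgeR adjusted p = 5.3e-27) and the perforin-like gene Mpeg1 (0.78). From the alveolar macrophage list, 5 of 7 genes tested were called higher: Atp6v0d2 (1.18), Krt79 (1.15), Plet1 (1.04), Ear1 (1.02) and the sterol transporter gene Abcg1 (0.88). From the general myeloid list, Ctss (0.74) and Itgb2 (0.52) were called, and none of 8 interstitial macrophage genes tested was called in either direction. The median log2 fold changes of the alveolar and interstitial lists were 1.04 and -0.11, against -0.01 over all genes. Retnla and the adipocyte gene Car3 (-0.38) were the 2 genes called lower.

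A Marco UMI was enough to place a spot above the 75th percentile of its section, which gave 28, 15, 175 and 124 Marco-high spots. No gene was called among 8944 (0%), while 357 had an unadjusted p below 0.05 and DESeq2 called 0. Chil3 came closest of the 10 genes, with levels in Marco-high spots that were 1.64, 0.62, 1.21 and 1.35 times those in the others. Chil3 was higher in 3 of 4 mice, and lower in the NV female, where 15 spots held 9 Chil3 UMIs. The log2 fold change was 0.33 (SE 0.08, edgeR adjusted p = 0.076), called at 0.36 without the NV female (adjusted p = 0.0069) and at 0.50 with thinning to 5000 UMIs (adjusted p = 4.1e-14). Log2 fold changes of the other members lay between -0.21 (Itgam) and 0.31 (Cd68), each with an SE of 0.16 or more.

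**Figure D4:**
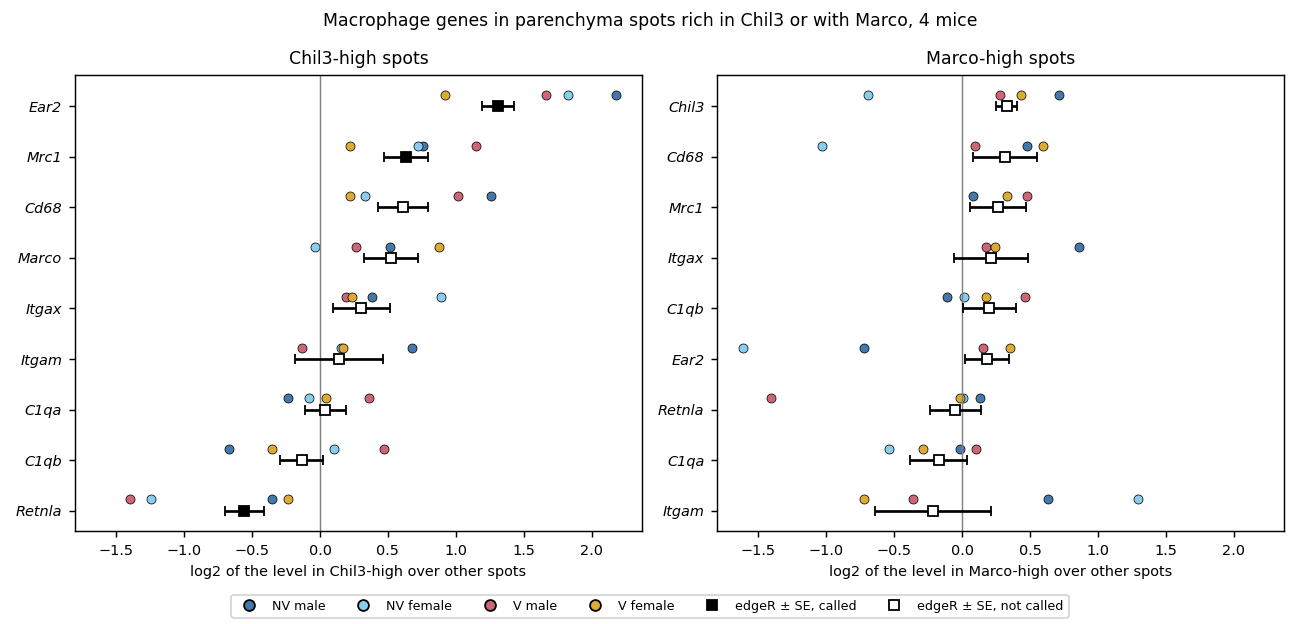
Log2 of the level in Chil3-high (left) or Marco-high (right) parenchyma spots over the remaining parenchyma spots, with squares and bars for the edgeR estimate and its SE (filled where called) and colored points for each mouse; Itgax and Mrc1 in the Marco-high spots of the NV female had 0 UMIs and are not drawn as points. Ear2 lies above 0 in all 4 mice beside Chil3, whereas each mouse, NV or V, has points on both sides of 0 beside Marco.

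Whether co-location differed between V and NV mice was tested as the interaction of spot class and group. No gene was called for Marco (0% of 8944, 445 at an unadjusted p under 0.05, 0 by DESeq2), and for Chil3 0.0108% of 9293 genes, 1 gene outside the macrophage set, was called. Ear2 had the lowest p of the members in both tests. Its V minus NV difference beside Chil3 was -0.79 (SE 0.32, edgeR adjusted p = 0.99, unadjusted p = 0.018), but 1.23 with thinning to 1000 UMIs and 0.013 to 5000 UMIs, and Chil3-high began at 2 UMIs in NV and 3 UMIs in V mice. Its difference beside Marco was 1.43 (SE 0.75, edgeR adjusted p = 0.99). The difference for Retnla beside Chil3 was 0.66 (SE 0.30, edgeR adjusted p = 0.99). These intervals are wide, and equal co-location in the groups is not shown.

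As a description of likeness across parenchyma spots, Pearson's r of log counts was computed in each mouse for 7104 genes seen in at least 5% of spots in every section, spots sharing a library and a fixed depth. Those most like Chil3 were Ear2 (mean r 0.20 over 4 mice, from 0.16 to 0.24), Ccl6 (0.15), Abcg1 (0.14), Ctss (0.13) and Mpeg1 (0.13). Those most like Marco were Pex7, Vat1, Hip1, Efhd2 and Mplkip, with mean r of 0.069 to 0.078, and the first 3 of these had r below 0 in at least 1 mouse. Marco itself was seen in 4.62% and 4.85% of the spots of the NV mice, under the 5% asked of the other genes, so its r rests there on 28 and 15 spots. Among the 45 pairs of the 10 macrophage genes, Chil3 and Ear2 ranked first, followed by Chil3 and Mrc1 (0.099), Retnla and C1qb (0.080) and C1qa and C1qb (0.079), and 10 pairs had r above 0 in all 4 mice. The pairs Chil3 and Retnla, Ear2 and C1qa, and Itgax and Retnla had r below 0 in all 4 mice, at means of -0.024 to -0.030.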

How the data were processed

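Visium libraries of 4 lung sections were processed by the authors with SpaceRanger (version 1.2.2) against the 10x mm10 reference, and the deposited values are raw counts of UMIs for each gene in each spot over tissue, without normalization. The submitters' processing notes also name Seurat 4.0.3, which does not enter these counts. Samples were grouped by their labels (2 V, 2 NV). The members and marker lists were chosen with earlier results of these data known. All deposited spots were used.

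CPM are scaled to the total UMIs of the section or region. UMIs were summed per mouse and spot class. The sums were tested in R 4.3.3 by the quasi-likelihood method of edgeR 4.0.16, after filterByExpr and with TMM factors, and p-values were adjusted over all genes tested (Benjamini-Hochberg). Each SE is the size of the log2 fold change over the square root of F. A call needed an adjusted p below 0.05 together with a fold change beyond 0.25 (log2). Spots were thinned without replacement to 3000 UMIs with numpy 2.4.6, and shares carry exact (Clopper-Pearson) 95% intervals from scipy 1.17.1. All 10 members were named for V against NV across whole sections and for parenchyma against other spots. The other comparisons give values for some members, and the interaction tests for Ear2 and Retnla alone. Also named were the 5 genes most like Marco and Chil3, called genes of the marker lists (at most 4 with the largest changes) and Ptprc, Il6 and Il1b. Folr2 and Ear1 in the V against NV comparison, and Ccl6 and Mpeg1 among genes called beside Chil3, were named after their values were seen. Each test but the interaction with Chil3 was run on simulated counts with known changes. These were drawn at 1 fixed dispersion that was not fitted to the data, so they give no error rates for these tests.

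Alternatives comprised DESeq2 1.42.0, other scalings, no filter, no fold threshold, a block for replicate number, fits without 1 mouse, thinning to 1000 or 5000 UMIs, at least 2 UMIs per spot, all spots in place of parenchyma, and a region threshold of 100%. Mice within a group are separate animals, each seen in 1 section, so differences in what a section holds are part of their spread. Positions of spots on the slide were not used here.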

Additional observations from a re-analysis of the deposited data

Results flagged for a closer look

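Members whose V to NV ratio lay on opposite sides of 1 in males and females were noted for a closer look. Each sex has 1 mouse per group, so the difference between sexes was not tested. Cd68 in V stood at 0.838 (males) and 1.11 (females) of the NV level across whole sections, and at 0.728 and 1.22 in the parenchyma. Itgax stood at 0.891 and 1.34 across whole sections and at 0.723 and 1.42 in the parenchyma. Mrc1 did so in the parenchyma only, at 0.901 in males and 1.05 in females.

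In the test of whether co-location with Chil3 differed between the groups, Gm42418, a gene outside the macrophage set, was called with a V minus NV difference of 0.29 on the log2 scale (SE 0.05, edgeR adjusted p = 0.0096), and DESeq2 called 0 genes there.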

How the results depend on the processing

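Calls over all genes moved by more than 1.5 times in several settings. For V against NV, edgeR called 0 genes while DESeq2 called 8 (whole section) and 10 (parenchyma) and no filter gave 5 in the parenchyma. Leaving out a mouse gave 0 to 811 and 0 to 1483 calls, the highest without the V female. For parenchyma against other spots, 5612 calls became 8839 with total UMIs, 3695 at the 100% threshold and 2866 after thinning. Beside Marco, 0 calls became 2 with total UMIs, 2 at 5000 UMIs, 17 over all spots, 1 with no filter and 0 to 1 with a mouse left out. Beside Chil3, 22 calls became 7 with DESeq2, 2 at 1000 UMIs, 46 at 5000 UMIs and 266 over all spots. The 1 call of the Chil3 interaction became 0 with DESeq2, at 1000 and 5000 UMIs and over all spots. The cause of these shifts was not tested.

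Of 497 alternative log2 fold changes of members, 428 kept their sign and side of the threshold, 26 changed sign, 24 passed the threshold and 19 no longer did. With a mouse left out, V against NV ranged over whole sections from -0.11 to 0.31 for Itgax and -0.25 to 0.068 for Cd68, and in the parenchyma from -0.22 to 0.18 for Mrc1, -0.53 to 0.041 for Itgam, -0.37 to 0.40 for Itgax and -0.33 to 0.14 for Cd68. At the 100% threshold Mrc1 was 0.061 in the parenchyma, and with total UMIs Itgam was 0.088 against other spots. Beside Marco, Itgam was 0.19 at 5000 UMIs and Ear2 -0.20 at 1000 UMIs. Beside Chil3, Retnla was 0.52 at 1000 and 0.064 at 5000 UMIs, C1qb was 0.038 at 5000 UMIs and -0.29 to 0.077 with a mouse left out, and C1qa was -0.040 at 5000 UMIs, -0.26 over all spots, -0.0059 with no filter and -0.030 to 0.073 with a mouse left out. In the interaction with Chil3, Ear2 was 1.23 at 1000 and 0.013 at 5000 UMIs, and Retnla was -0.056 over all spots.

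The replicate number, which is also the sex, does not mark shared animals. The male minus female differences of the groups correlated over genes at 0.41 (whole section) and 0.13 (parenchyma). With the number as a block, edgeR called 0 genes in both comparisons, and Marco stood at 1.46 and 1.65 and Retnla at -3.18 and -2.93, in place of -1.57 and -1.73. Members with an unadjusted p under 0.05 numbered 5 and 5, in place of 3 and 2. Marco rests on 133 and 76 UMIs in the NV sections, which limits its precision.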
